A study of Mus musculus with 6 samples.

Results

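The 10 genes described here are those of the integrated stress response, namely *Atf4*, its partners *Ddit3* (CHOP) and *Atf3*, and the target genes *Trib3*, *Asns*, *Chac1*, *Ppp1r15a*, *Ddit4*, *Sesn2* and *Nupr1*. They were chosen by name from the 23284 genes of the count files, and all 10 were found there. Liver RNA of FXR-floxed male mice was sequenced, with 3 mice expressing FXR-WT and 3 expressing Y67F-FXR, a form of the nuclear bile acid receptor FXR in which tyrosine 67 cannot be phosphorylated. At 8 weeks of age all 6 mice had received AAV8 carrying Cre recombinase under the hepatocyte-directed TBG promoter, together with AAV8 carrying FXR of either form under the same promoter. After a further 4 weeks they were given chow with 0.5% cholic acid (CA) for 6 h. The deletion and the vector therefore reach hepatocytes, other cells of the liver keep their own FXR gene, and no mouse without vector or without CA is compared here.

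The integrated stress response begins when a kinase, such as PERK at the endoplasmic reticulum (ER) or GCN2 under amino acid shortage, phosphorylates the translation factor eIF2. General protein synthesis then drops while the *Atf4* message is translated more, and ATF4 activates genes for amino acid supply, for feedback and, with CHOP, for cell death. The other arms of the ER stress response, through ATF6 and through IRE1 and XBP1, mainly raise chaperones and degradation factors of the ER. The comparison of the 2 groups, made for both sets of genes, asks whether the PERK and ATF4 arm moved with the chaperone arms in livers with Y67F-FXR. ATF4 is controlled largely at translation, so its mRNA is only part of its level.

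The promoters of both sets were searched for the motifs of their factors. ATF4 binds with C/EBP proteins at a composite site (CARE), searched here as TGATGNAA on both strands, while ATF6 binds the ER stress element (ERSE), searched as CCAAT and CCACG with 9 bases between them. In RefSeq windows of 300 bases around the start of each gene (GRCm38.p6), which were found for all 10 genes, CARE matched 5 of the 10 genes, against 4.51% of all 27025 genes with a window. Of the other lists, it matched 5 of 9 genes with a window for tRNA charging and export, 3 of 11 for signalling, 2 of 13 for amino acid supply and 0 of 13 chaperone genes. ERSE matched none of the 10 members, and 7 of the 13 chaperone genes, against 0.137% of all genes. No match of one motif overlapped a match of another. The 4 members with CARE before the start are printed 5′ to 3′ with *Hspa5*, the chaperone BiP, each as the 250 bases before the start on the gene's own strand. Capitals mark CARE in the first 4 and ERSE in *Hspa5*.
Chac1 (chr2:119350992-119351241, plus strand): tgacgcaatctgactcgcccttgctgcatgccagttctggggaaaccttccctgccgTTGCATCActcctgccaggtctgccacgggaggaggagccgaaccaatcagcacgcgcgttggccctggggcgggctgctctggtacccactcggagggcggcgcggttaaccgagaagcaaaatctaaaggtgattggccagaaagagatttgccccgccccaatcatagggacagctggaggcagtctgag
Asns (chr6:7693210-7693459, minus strand): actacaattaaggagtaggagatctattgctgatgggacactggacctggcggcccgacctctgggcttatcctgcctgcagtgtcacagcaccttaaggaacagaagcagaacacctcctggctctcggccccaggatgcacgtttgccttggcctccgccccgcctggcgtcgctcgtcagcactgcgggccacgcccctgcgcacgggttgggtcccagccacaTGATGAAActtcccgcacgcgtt
Atf3 (chr1:191183334-191183583, minus strand): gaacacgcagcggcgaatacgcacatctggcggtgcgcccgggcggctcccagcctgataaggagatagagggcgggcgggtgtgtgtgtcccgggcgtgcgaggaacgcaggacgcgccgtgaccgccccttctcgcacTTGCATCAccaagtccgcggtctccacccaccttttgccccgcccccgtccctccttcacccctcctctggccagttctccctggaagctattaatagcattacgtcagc
Nupr1 (chr7:126625471-126625720, minus strand): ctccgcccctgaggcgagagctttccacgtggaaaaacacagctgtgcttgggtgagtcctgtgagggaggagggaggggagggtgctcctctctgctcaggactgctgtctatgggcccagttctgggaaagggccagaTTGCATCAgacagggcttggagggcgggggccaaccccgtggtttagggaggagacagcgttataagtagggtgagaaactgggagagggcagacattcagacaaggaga
Hspa5 (chr2:34771840-34772089, plus strand): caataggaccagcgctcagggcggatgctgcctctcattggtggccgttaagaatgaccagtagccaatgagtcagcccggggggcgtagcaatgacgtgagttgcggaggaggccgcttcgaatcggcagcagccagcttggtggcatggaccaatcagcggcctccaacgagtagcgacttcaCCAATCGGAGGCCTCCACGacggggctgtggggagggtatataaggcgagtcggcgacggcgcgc
CARE lay 186 to 193 bases before the start in *Chac1*, 16 to 23 in *Asns* and 103 to 110 in both *Atf3* and *Nupr1*. In *Trib3* it lay 15 to 22 bases into the transcript. *Atf4*, *Ddit3*, *Ppp1r15a*, *Ddit4* and *Sesn2* had no match in this window, which does not cover sites farther away. A match is a run of letters, and binding was not measured.

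The libraries held from 19551113 to 22053320 counted reads. Of all genes, 12453 passed edgeR's filter on low counts, with all 10 members among them, and these were compared by edgeR's quasi-likelihood test. Calls required a fold change over 1.5 and a p under 0.05 after Benjamini-Hochberg adjustment over all tested genes (given below as the adjusted p). This gave 53 genes lower and 68 higher in Y67F-FXR livers, or 68 and 52 with library totals in place of TMM scaling. The labels do not name the mice, and p-values measure the spread between these 3 livers of each group. Levels are given as CPM, the usual read count of a gene scaled to library size, here with TMM factors. The livers carried hepatocyte RNA throughout, with a summed level of 6 hepatocyte markers from 100470 to 113993 CPM in FXR-WT and from 96245 to 117789 CPM in Y67F-FXR livers. In bulk liver, fewer cells of a type and less RNA per cell cannot be told apart.

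One liver stood apart for these genes and for some related lists. FXR-WT replicate 1 had the highest level of the 6 livers in 8 of the 10 members, where this held for 20.7% of all tested genes. It was also the highest liver in 9 of 13 tested genes for tRNA charging and export, in 10 of 15 ER chaperones and in 7 of 11 genes for degradation of ER proteins. Its levels were 1.46 times the mean of the other FXR-WT livers for *Atf4*, 2.38 times for *Ddit3* and 4.04 times for *Asns*. The exceptions were *Ppp1r15a*, which was highest in Y67F-FXR replicate 2, and *Sesn2*, which was lowest in FXR-WT replicate 1. Y67F-FXR replicate 1 was the lowest liver in 4 members, against 18.4% of tested genes. Each member is therefore described with and without FXR-WT replicate 1. This liver was picked on the members' own levels, so leaving it out must raise the fold changes of the 8 members.

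No member passed edgeR's test in either direction, where 0.426% of all tested genes were called lower and 0.546% higher. DESeq2 called 1 member (*Chac1*, lower), where it called 1.56% of its tested genes lower and 1.62% higher. Of the 10 members, 8 had lower and 2 had higher fitted levels in Y67F-FXR livers. The median of their log2 fold changes was -0.58, against 0.012 for all tested genes. At an unadjusted p under 0.05, 1 member was lower (*Chac1*) and 2 were higher (*Ppp1r15a* and *Sesn2*), against 6.67% and 6.75% of tested genes. Without FXR-WT replicate 1, only 4 members were fitted lower and the median was 0.082. With any other liver left out, 8 were fitted lower and the median lay between -0.79 and -0.40.

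**Figure D1:**
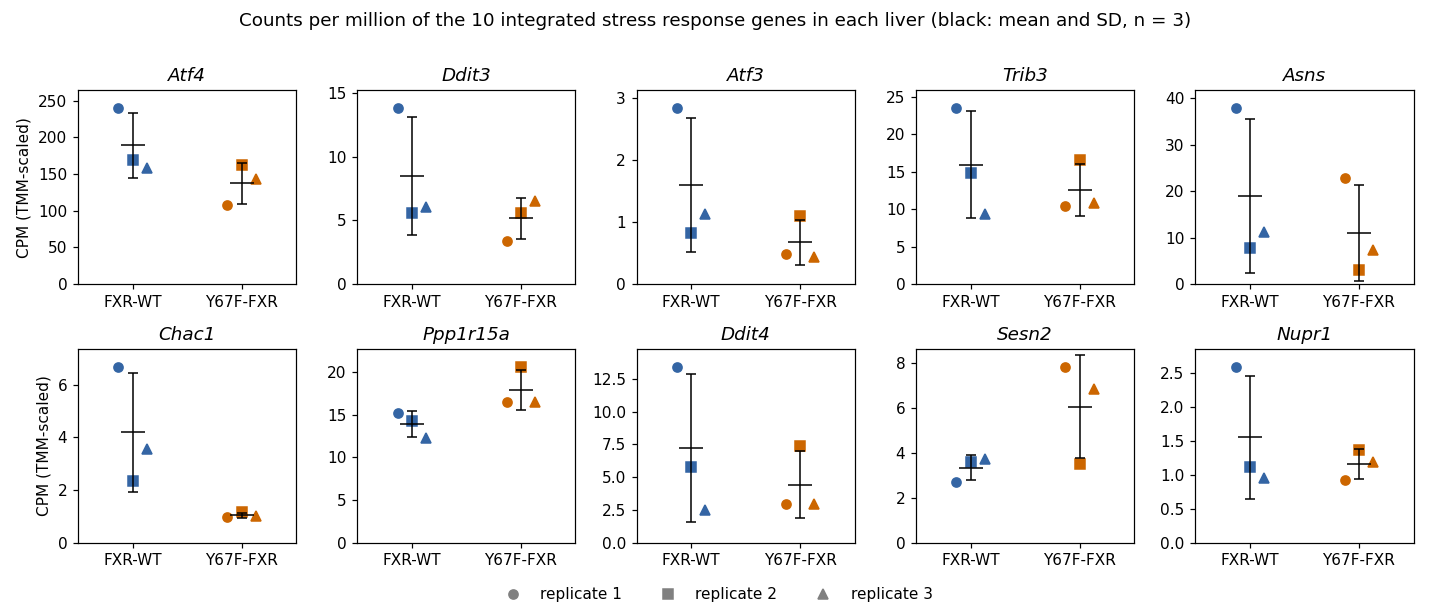
CPM of each member (vertical axes, linear from 0) in the 3 FXR-WT livers (blue) and 3 Y67F-FXR livers (orange), with marker shapes for the replicate number and black bars for mean and SD. FXR-WT replicate 1 (blue circle) is highest in 8 panels, and the groups are separate only for *Chac1* and *Ppp1r15a*.

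Among the transcription factors, *Atf4* (chromosome 15 of mm9, 80085614 to 80087971, plus strand) was by far the most abundant member, with 110 CPM per kilobase of exon (RPKM) in FXR-WT livers. On that scale *Asns* (9.81) and *Ddit3* (9.74) came next in the mean of the FXR-WT livers and *Atf3* (0.807) last. In Y67F-FXR livers *Ppp1r15a* (7.67), *Trib3* (6.14) and *Ddit3* (5.93) came before *Asns* (5.74). *Atf4* was at 240, 169 and 159 CPM in FXR-WT replicates 1 to 3 and at 107, 162 and 143 CPM in Y67F-FXR replicates 1 to 3. The groups overlapped, since Y67F-FXR replicate 2 lay above FXR-WT replicate 3. The means were 189 ± 44.2 CPM (SD, n = 3) and 138 ± 27.9 CPM (SD, n = 3). The log2 fold change of -0.46 had a 95% interval from -0.94 to 0.021 (adjusted p = 0.396, edgeR), and -0.26 was left without FXR-WT replicate 1.

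*Ddit3* (chromosome 10 of mm9, 126727849 to 126733344, plus strand) encodes CHOP, a factor that drives death under lasting ER stress. It was measured at 13.8, 5.58 and 6.05 CPM in FXR-WT livers and at 3.40, 5.56 and 6.54 CPM in Y67F-FXR livers. Apart from FXR-WT replicate 1, the FXR-WT livers lay within the range of the Y67F-FXR livers. With all livers the log2 fold change was -0.71 (95% interval -1.62 to 0.19) and -0.18 without FXR-WT replicate 1. Of its 871 exon bases, 68 are shared with *Mars*, a tRNA synthetase gene on the opposite strand. Reads on the shared bases were not counted for either gene.

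*Atf3* (chromosome 1 of mm9, 192994176 to 193007212, minus strand), a stress-inducible repressor of the same family, had few reads in most livers. It had 58, 17 and 26 reads in FXR-WT livers, or 2.84, 0.824 and 1.12 CPM, and 10, 20 and 9 reads in Y67F-FXR livers, or 0.486, 1.09 and 0.430 CPM. The exact Poisson interval (95%, counting error only) of FXR-WT replicate 1, from 2.15 to 3.67 CPM, lay above that of every other liver, of which the highest reached 1.69 CPM. The difference on the log2 scale was -1.26 (95% interval -2.57 to 0.048), and -0.56 without that liver.

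The genes of amino acid and glutathione metabolism held both the most variable and the most separated member. *Chac1* (chromosome 2 of mm9, 119176978 to 119180062, plus strand) encodes an enzyme that breaks down glutathione. Its levels were 6.70, 2.33 and 3.54 CPM in FXR-WT livers and 0.972, 1.15 and 1.00 CPM in Y67F-FXR livers, which is 137, 48 and 82 reads against 20, 21 and 21. All 3 Y67F-FXR livers lay below all 3 FXR-WT livers, as they did for 10.5% of tested genes. The exact Poisson intervals of the 3 Y67F-FXR livers (0.594 to 1.501, 0.709 to 1.75 and 0.621 to 1.53 CPM) overlapped. They lay below the lower bounds of FXR-WT replicates 1 and 3 (5.62 and 2.82 CPM), while that of FXR-WT replicate 2 (1.72 CPM) was within the interval of Y67F-FXR replicate 2. The mean was 4.19 ± 2.26 CPM (SD, n = 3) against 1.04 ± 0.0927 CPM (SD, n = 3), and the fitted difference was 4.01-fold. The log2 fold change of -2.005 (standard error 0.407, 95% interval -2.94 to -1.06) missed the call (unadjusted p = 0.00117, adjusted p = 0.0768, edgeR). It was -1.50 without FXR-WT replicate 1 (adjusted p = 0.106, edgeR), and *Chac1* was called under 4 other settings, among them DESeq2 (adjusted p = 0.000464).

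*Asns* (chromosome 6 of mm9, 7625171 to 7643182, minus strand), which encodes asparagine synthetase, spread over a 12.2-fold range among the 6 livers. It was at 37.9, 7.66 and 11.1 CPM in FXR-WT and at 22.8, 3.11 and 7.30 CPM in Y67F-FXR livers. Replicate 1 was the highest liver of each group, and the spread within each group (coefficient of variation 87.7% and 93.7%) exceeded the difference between the means. With all livers the log2 fold change was -0.77 (95% interval -2.54 to 1.01). It was 0.23 without FXR-WT replicate 1 and -1.85 without Y67F-FXR replicate 1 (adjusted p = 0.358, edgeR).

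Of the feedback genes, *Trib3* (chromosome 2 of mm9, 152163161 to 152169796, minus strand) encodes a pseudokinase that binds ATF4 and Akt. Its levels overlapped fully, at 23.5, 14.9 and 9.38 CPM in FXR-WT and 10.4, 16.6 and 10.8 CPM in Y67F-FXR livers. The log2 fold change of -0.34 (95% interval -1.11 to 0.43) was 0.055 without FXR-WT replicate 1.

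*Ppp1r15a* (chromosome 7 of mm9, 52778288 to 52781638, minus strand) encodes GADD34, which directs a phosphatase to eIF2 and so ends the response. It was the only member whose Y67F-FXR livers all lay above the FXR-WT livers, as did 10.2% of tested genes. It had 15.2, 14.3 and 12.3 CPM in FXR-WT and 16.5, 20.6 and 16.5 CPM in Y67F-FXR livers. The log2 fold change of 0.36 (95% interval 0.013 to 0.71), a 1.29-fold difference below the minimum for a call, was not called (adjusted p = 0.354, edgeR). FXR-WT replicate 1 weighed little here, since the value without it was 0.43. Without Y67F-FXR replicate 2 the log2 fold change of *Ppp1r15a* was 0.24 (adjusted p = 0.544, edgeR). Its constitutive counterpart *Ppp1r15b*, named after its value was seen, had mean levels of 88.7 ± 2.33 CPM and 88.6 ± 6.78 CPM (SD, n = 3 each) in the FXR-WT and the Y67F-FXR livers.

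The inhibitors of the growth kinase mTORC1 had fitted changes of opposite sign. *Ddit4* (chromosome 10 of mm9, 59412423 to 59414518, minus strand), encoding REDD1, was at 13.4, 5.77 and 2.46 CPM in FXR-WT and 2.96, 7.36 and 2.96 CPM in Y67F-FXR livers. The lowest and the highest liver were both FXR-WT. Its log2 fold change was -0.71 (95% interval -2.10 to 0.69), and it was 0.11 without FXR-WT replicate 1 and -1.29 without Y67F-FXR replicate 2.

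*Sesn2* (chromosome 4 of mm9, 132048722 to 132066371, minus strand) encodes sestrin 2, a leucine sensor. It was at 2.69, 3.59 and 3.72 CPM in FXR-WT and 7.83, 3.49 and 6.83 CPM in Y67F-FXR livers. Y67F-FXR replicates 1 and 3 lay above all FXR-WT livers and replicate 2 within their range. With a log2 fold change of 0.86 (95% interval 0.15 to 1.57, adjusted p = 0.271, edgeR), it had the largest fitted increase among the members. Leaving out Y67F-FXR replicate 2 gave 1.12 (adjusted p = 0.0951, edgeR), and leaving out FXR-WT replicate 1 gave 0.72.

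*Nupr1* (chromosome 7 of mm9, 133766760 to 133768984, minus strand), a small nuclear stress protein gene with 626 exon bases, had from 19 to 53 reads per liver. Its levels were 2.59, 1.12 and 0.951 CPM in FXR-WT and 0.923, 1.36 and 1.19 CPM in Y67F-FXR livers. With all livers the log2 fold change was -0.41 (95% interval -1.39 to 0.56), and 0.16 without FXR-WT replicate 1, the only liver above 1.36 CPM. Short genes as a whole read high in that library, with a median deviation of 0.20 on the log2 scale over the shortest tested genes (those of up to 1598 bp). They read as high in Y67F-FXR replicate 2 (0.22). The median deviation of the 10 members was 1.06 in the first of these libraries and 0.062 in the second. With offsets for gene length the 10 members had the same signs and *Chac1* was called (adjusted p = 0.0403, edgeR). The part of gene length in the levels of the members was not tested otherwise.

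**Figure D2:**
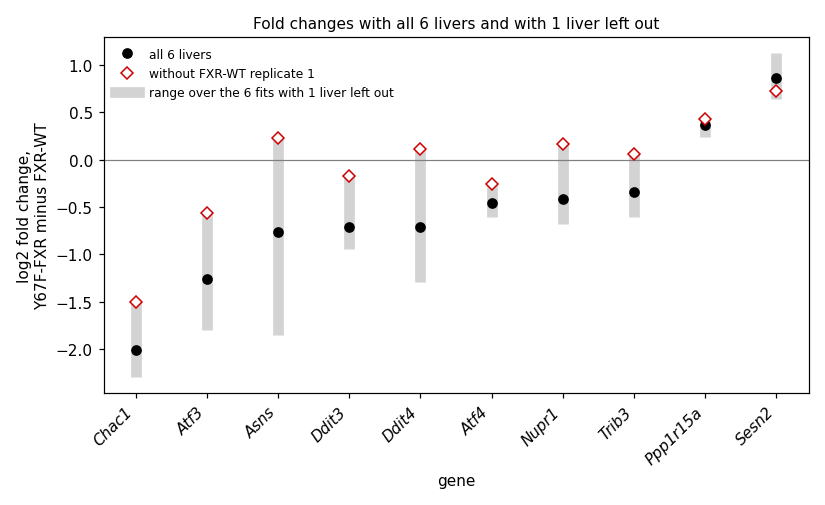
Log2 fold change (Y67F-FXR minus FXR-WT, vertical axis) of each member with all 6 livers (black) and without FXR-WT replicate 1 (red diamonds), over the range of the 6 fits that leave out 1 liver (gray). Without that liver *Trib3*, *Asns*, *Ddit4* and *Nupr1* cross 0, while *Chac1* stays at -1.50 and *Sesn2* at 0.72.

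Upstream of ATF4, the kinases and the eIF2 complex were also measured, and none of 16 tested genes was called by edgeR or DESeq2. Of these, 12 were fitted lower (median log2 fold change -0.17). At an unadjusted p under 0.05, 4 were lower and 1 higher, against 6.67% and 6.75% of all tested genes. *Eif2ak3*, the gene for PERK (named after its value was seen), was at 9.63, 9.70 and 8.04 CPM in FXR-WT and 8.55, 6.49 and 7.59 CPM in Y67F-FXR livers. On the log2 scale this was -0.27 (95% interval -0.66 to 0.11, adjusted p = 0.563, edgeR). The smallest adjusted p in this list were those of the eIF2 subunits *Eif2s2* (log2 fold change -0.37) and *Eif2s1* (-0.47) and of *Impact* (-0.50), an inhibitor of GCN2 activation.

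Other ATF4 targets were grouped by role into amino acid supply, tRNA charging and export, and signalling. Of 41 such genes, 35 were tested, and the median log2 fold change was -0.27. Of these, 2 were called lower and none higher, against 0.426% and 0.546% of all tested genes. Without FXR-WT replicate 1 none was called and the median was -0.24. Amino acid supply went both ways, with 6 of 11 tested genes fitted lower and a median of -0.015. *Mthfd2*, a mitochondrial folate enzyme, had a log2 fold change of -1.62 (-0.84 without FXR-WT replicate 1), at 2.98, 0.873 and 0.994 CPM in FXR-WT and 0.389, 0.709 and 0.477 CPM in Y67F-FXR livers. The liver enzymes *Gpt2* (0.55) and *Cth* (0.52), an alanine aminotransferase and cystathionine gamma-lyase, had fitted changes of the opposite sign and separate groups. No gene of this group was called by edgeR or DESeq2. At an unadjusted p under 0.05, 3 were lower and 2 higher, against 6.67% and 6.75% of all tested genes.

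The list for tRNAs held 12 synthetases, which charge tRNAs, and the export factor *Xpot*, which was fitted higher (0.17, named after its value was seen). Of the 13 tested, 11 were fitted lower, with a median of -0.28, and in 10 all Y67F-FXR livers lay below all FXR-WT livers, against 10.5% of tested genes. The call was reached by *Yars*, the tyrosyl-tRNA synthetase, which decreased from 47.8, 41.0 and 38.7 CPM to 23.0, 26.7 and 25.3 CPM. The change was -0.77 on the log2 scale (standard error 0.131, adjusted p = 0.0444, edgeR), and the call was lost with any 1 liver left out. Cysteinyl-tRNA synthetase *Cars* (-0.94) had an adjusted p of 0.0718 and threonyl-tRNA synthetase *Tars* (-0.46) of 0.138 (edgeR). DESeq2 called *Cars* also. Leaving out FXR-WT replicate 1 left the median of this list at -0.29.

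Among the signalling genes, the secreted factor *Gdf15* was called. It decreased from 11.0, 5.53 and 8.25 CPM in FXR-WT to 1.02, 2.56 and 1.58 CPM in Y67F-FXR livers, a change of -2.27 on the log2 scale (standard error 0.372, adjusted p = 0.0381, edgeR). With 1 liver left out it was called once, without Y67F-FXR replicate 2. *Cebpg*, a binding partner of ATF4, had a log2 fold change of -0.40 with separate groups (adjusted p = 0.183, edgeR). For the hormone *Fgf21* the value was -1.64, with FXR-WT replicate 1 at 63.0 CPM and the other FXR-WT livers at 14.6 CPM, and the Y67F-FXR livers lay between 8.35 and 12.6 CPM. Without FXR-WT replicate 1 it was -0.56.

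Of 15 tested chaperone and foldase genes, 10 decreased past the threshold, against 0.426% of all tested genes. All 15 were fitted lower, and the median log2 fold change was -1.08. This list, as the members, was chosen with earlier results of these data known. The 3 Y67F-FXR livers lay below the 3 FXR-WT livers in 14 of the 15, against 1 of the 10 members and 10.5% of all tested genes. *Hspa5* decreased from 1798, 1057 and 1405 CPM to 437, 402 and 491 CPM, and *Hyou1* from 284, 181 and 242 CPM to 70.3, 56.4 and 76.5 CPM. *Sdf2l1* (log2 fold change -2.89), *Manf* (-2.19), *Dnajb11* (-1.08) and *Pdia4* (-1.35) followed the same order of groups. Without FXR-WT replicate 1 the median was -0.98, all 15 were still fitted lower and 6 were called. The median of the 10 members was then 0.082. That liver was singled out as the highest in 8 of the 10 members, so leaving it out had to raise their fold changes. Leaving out replicate 3 of either group left 0 called, at 15 of 15 fitted lower. The number was 2 without Y67F-FXR replicate 1 and 5 without Y67F-FXR replicate 2, while the median stayed between -1.27 and -0.98. The difference between the 2 lists was not tested. Most members also had lower levels than the chaperones, so the numbers of calls are not like for like. *Calr*, at -0.90 and a mean of 1282 CPM in FXR-WT livers, was called. *Chac1*, at -2.005 and 4.19 CPM, was not.

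**Figure D3:**
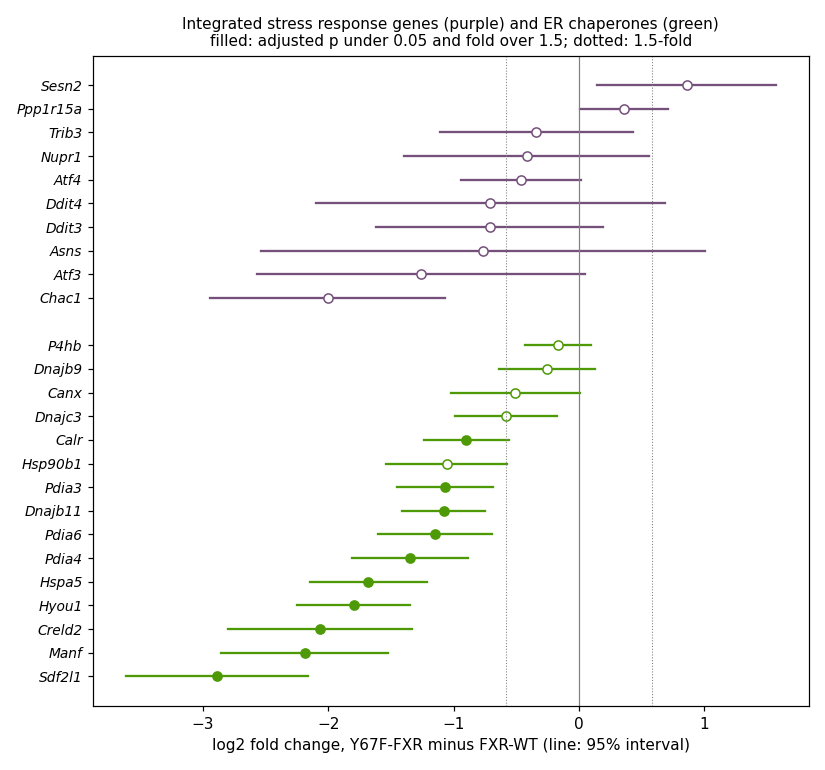
Log2 fold change (horizontal axis) with its 95% interval for the 10 members (purple) and the 15 chaperone genes (green), with filled points for genes past the threshold. Of the chaperone points 10 are filled and all lie below 0, while no member is filled.

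Both lists were highest in FXR-WT replicate 1. The median deviation of the members from each gene's mean was 1.06 in FXR-WT replicate 1 and -0.15 and -0.13 in FXR-WT replicates 2 and 3, on the log2 scale. In Y67F-FXR replicates 1 to 3 it was -0.49, 0.062 and -0.24, so that replicate 2 lay above 2 of the FXR-WT livers. For the chaperones the values were 0.80, 0.25 and 0.65 in FXR-WT and -0.47, -0.72 and -0.53 in Y67F-FXR livers, with every FXR-WT liver above every Y67F-FXR liver. *Chac1* was the member that shared this order of groups.

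**Figure D4:**
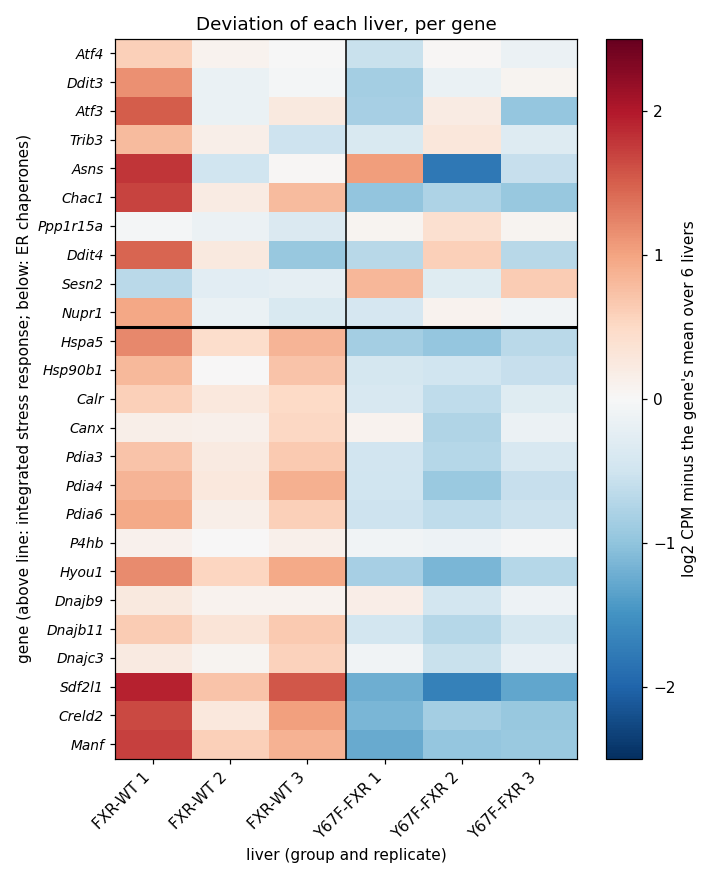
Log2 CPM of each gene minus its mean over the 6 livers (color), for the members (above the line) and the chaperones (below), with livers as columns. The members are red mainly in FXR-WT replicate 1, the chaperones in all 3 FXR-WT livers.

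The sensors and degradation factors of the other arms had smaller median changes than the chaperones. Of 7 tested sensors and factors, 5 were fitted lower and 2 higher (median log2 fold change -0.12). At an unadjusted p under 0.05, 3 were lower and 1 was higher, against 6.67% and 6.75% of all tested genes. Past the threshold was 1 gene, lower, against 0.426% of all tested genes. *Xbp1*, the factor of the IRE1 arm, decreased from 399, 290 and 321 CPM to 165, 169 and 194 CPM. The change was -0.94 on the log2 scale (adjusted p = 0.0379, edgeR), and the call was lost with any 1 liver left out. These are counts over the whole gene, and the activity of IRE1 was not measured. *Atf6* (-0.59) and *Atf6b* (-0.50) had separate groups and were not called by edgeR, while DESeq2 called *Atf6*. The liver factor *Creb3l3*, named after its value was seen, had a log2 fold change of 0.45 and separate groups with Y67F-FXR higher (adjusted p = 0.184, edgeR). Of 11 tested genes for degradation of ER proteins, 10 were fitted lower with a median of -0.26. None was called by edgeR, and DESeq2 called *Syvn1* and *Derl3*. At an unadjusted p under 0.05, 4 were lower, against 6.67% of all tested genes. The smallest adjusted p there were those of *Syvn1* (-0.94), *Derl3* (-2.57) and *Derl2* (-0.40).

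*Atf3* and *Ppp1r15a* also respond as immediate early genes, and *Ddit4* to glucocorticoids. None of 9 tested immediate early genes was called by edgeR, and the median log2 fold change was -0.026. At an unadjusted p under 0.05, 3 were lower and 2 higher, against 6.67% and 6.75% of all tested genes. The smallest adjusted p were those of *Egr1* (-2.06), *Gadd45a* (-2.54) and *Gadd45b* (1.93), at adjusted p of 0.0547, 0.0724 and 0.139 (edgeR), and DESeq2 called these 3. *Gadd45a*, a growth arrest gene, was at 22.7 CPM in FXR-WT replicate 1 and at 6.88 and 7.30 CPM in the other FXR-WT livers, and the Y67F-FXR livers lay below all of these, at 1.65, 2.73 and 1.96 CPM. Without FXR-WT replicate 1 it was at -1.75 and was called (adjusted p = 0.0466, edgeR). Of 9 tested glucocorticoid-responsive genes, 7 were fitted higher, with a median of 0.39 and no call by the quasi-likelihood test or DESeq2. The likelihood ratio test of edgeR called *Mt2* higher. At an unadjusted p under 0.05 (quasi-likelihood test), 2 were higher, against 6.75% of all tested genes. *Mt2* (2.02), *Per1* (0.82) and *Mt1* (1.46) had the smallest adjusted p. FXR-WT replicate 1 held the metallothionein *Mt1* at 120 CPM, against 22.9 and 22.2 CPM in the other FXR-WT livers, and *Mt2* at 27.2 CPM, against 5.87 and 6.26 CPM. Without that liver the log2 fold change was 2.74 for *Mt1* and 3.12 for *Mt2*, and *Mt2* was called (adjusted p = 0.01996, edgeR).

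Markers of other liver cells were measured beside the members, and no tested marker was called by edgeR. DESeq2 called *S100a8*, *S100a9* and *Lrat* lower. The summed level of 9 Kupffer cell and leukocyte markers ranged from 96.1 to 136 CPM in FXR-WT and from 74.9 to 198 CPM in Y67F-FXR livers. That of 7 stellate cell markers was 201 to 216 CPM against 147 to 204 CPM, of 5 endothelial markers 144 to 172 CPM against 146 to 157 CPM, and of 4 cholangiocyte markers 9.29 to 13.9 CPM against 11.96 to 12.2 CPM. Of 3 erythrocyte markers, *Hbb-b1* and *Hba-a1* had no counted reads in any library, and *Alas2* alone gave 80.1 to 89.3 CPM against 86.5 to 114 CPM. Counting dropped reads that lay on more than one gene or place, so this does not show that globin RNA was absent. FXR-WT replicate 1 had the highest sum of the FXR-WT livers for hepatocyte (113993 CPM), Kupffer cell and leukocyte (136 CPM), stellate (216 CPM) and endothelial (172 CPM) markers. Single markers that the sums hide were named after their values were seen. The myofibroblast gene *Acta2* was at 9.88 CPM in FXR-WT replicate 1, at 1.60 and 1.56 CPM in the other FXR-WT livers and at 0.826, 1.58 and 0.955 CPM in Y67F-FXR livers. The neutrophil genes *S100a8* (log2 fold change -2.73, adjusted p = 0.0529, edgeR) and *S100a9* (-1.95, adjusted p = 0.106) and the stellate cell gene *Lrat* (-1.15, adjusted p = 0.054) had separate groups with Y67F-FXR lower, and each was highest in FXR-WT replicate 1. The same held for the stellate cell gene *Col1a1* (-0.77) and the endothelial gene *Lyve1* (-0.89). The macrophage gene *Marco* went the other way, with a log2 fold change of 1.63 (adjusted p = 0.388, edgeR), and was at 62.2 CPM in Y67F-FXR replicate 2 and between 5.40 and 16.5 CPM in the other livers. Of the 9 Kupffer cell and leukocyte markers, 5 were fitted lower and 4 higher. Of the 7 stellate cell markers, 6 were fitted lower and 1 higher. Of the 5 endothelial markers, 3 were fitted lower and 2 higher (median log2 fold change -0.11), and only *Lyve1* had separate groups. The part of these cells in the levels of the members was not tested.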

How the data were processed

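RNA of 3 FXR-WT and 3 Y67F-FXR livers was sequenced by the authors as paired-end reads. Per the labels and the file headers, reads were trimmed with Trimmomatic 0.36, aligned with STAR and counted with featureCounts 1.4.6-p4 on UCSC mm9 exons. The labels give STAR 2.5.3a. Counting ignored strand, took both mates as separate reads and dropped reads that lay on more than one gene or place. The deposited counts are raw and were not normalized. A second table deposited by the authors holds the results of their comparison (log2 fold change, mean log2 CPM, p-value and false discovery rate), and was not used.

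From these counts, tests were run with edgeR 4.0.16 (filterByExpr, TMM factors, glmQLFit and glmQLFTest over all genes, with Benjamini-Hochberg adjustment) and, as an alternative, DESeq2 1.42.0, in R 4.3.3. Calls required a fold change over 1.5 and an adjusted p under 0.05. CPM uses library sizes scaled by TMM, log2 CPM used a prior count of 2, and RPKM is CPM per kilobase of exon. Standard errors and 95% intervals come from the F statistic. With 3 livers a group, the smallest two-sided p of an exact permutation test is 0.1. No 2 livers of a group agreed within counting noise (median chi-square per gene from 2.21 to 7.84). The fits were tested on simulated counts.

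The members and lists were chosen with earlier results of these data known. Named are all members and, from each other list, the called genes or the 3 with the smallest adjusted p where fewer than 3 were called, up to 6 in a list. Marker lists are given by their sums. Promoters are from RefSeq (GRCm38.p6) and were not placed on mm9. *H47* stands for *Selenos* in the list for degradation. Alternatives were other scaling, other tests, other filters, no fold minimum, offsets for gene length (loess span 0.3), the replicate number as a block and each liver left out. Figures were drawn with Python 3.11.15 and matplotlib 3.10.9.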

Additional observations from a re-analysis of the deposited data

How the results depend on the processing

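No member was called higher under any alternative run, and none was called lower with other scaling, the stricter filter, no fold minimum, the replicate block or 1 liver left out. *Chac1* was called, as the 1 member lower in place of 0, with DESeq2 (log2 fold change -2.001), the likelihood ratio test (-2.005), no filter on low counts (-1.998) and gene length offsets (-1.98). Without FXR-WT replicate 1 the signs of *Trib3*, *Asns*, *Ddit4* and *Nupr1* turned. Leaving out 1 liver at a time, *Trib3* ranged from -0.61 to 0.055, *Asns* from -1.85 to 0.23, *Ddit4* from -1.29 to 0.11 and *Nupr1* from -0.68 to 0.16 (log2 fold changes), the members' median from -0.79 to 0.082, the number of other ATF4 targets called lower from 0 to 1 in place of 2, and the number of chaperones called lower from 0 to 10 in place of 10. The filter at 1 CPM left out *Atf3* and *Nupr1*.

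For livers with the same replicate number, the correlations of deviations from the group means were -0.517, -0.0804 and 0.121. These values cannot tell whether such livers share a batch. For *Asns* the replicate block took the standard error from 0.769 to 0.201, at a log2 fold change of -0.86 (adjusted p = 0.263, edgeR). With the replicate block, 2 chaperones and 0 other ATF4 targets were called, and 6 genes lower and 2 higher over all genes. Of all genes, 206 were called lower and 214 higher with DESeq2, 226 and 221 with the likelihood ratio test, 124 and 123 with length offsets and 7 and 2 without FXR-WT replicate 3, in place of 53 and 68. Fewer livers also give less power, and the cause of these shifts was not tested. Low counts limit *Atf3*, *Nupr1* and *Chac1*, with as few as 9, 19 and 20 reads in a library.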
